A study of Mus musculus with 22 samples.

Results

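EPCAM- tumour cells were compared with EPCAM+ tumour cells of the unedited control line at day 8, across all genes. The comparison rests on 4 RNA-seq libraries of the 22 in the series, 2 per fraction, which were chosen by their column names and are numbered 1 and 2 in each fraction. The cells came from mouse primary tumour lines whose genotype includes Lgr5CreER, p53fl/fl and Rosa26-YFP+/+. Lgr5CreER is a tamoxifen-activated recombinase driven by Lgr5, a stem cell gene, and in cells where it has acted it deletes p53 and turns on the yellow reporter. All groups share these alleles, and the other 4 day 8 lines additionally carry a CRISPR/Cas9 knockout of Pitx1, Klf5, Nfatc1 or Creb3l1. Living single mCherry+ YFP+ cells were stained with an antibody to EPCAM and sorted by FACS into the 2 fractions; the labels do not say what mCherry marks. The labels give no treatment that begins at day 0 and do not state if both libraries in a group are separate cultures or clones. The p-values rest on the spread between libraries of a group, pooled over all 22 libraries, and that spread may be technical.

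EPCAM is a surface adhesion protein of epithelial cells. In an epithelial to mesenchymal transition (EMT), cells give up cell-cell junctions and apical polarity and take on vimentin filaments, matrix secretion and motility. The transcription factors of the Zeb and Snail families repress epithelial genes by binding E-box sequences, while Ovol and Grainyhead-like factors and the Esrp splicing regulators maintain the epithelial state. Tumour cells can hold states between these poles, and EPCAM is used to sort them apart.

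Values are deposited read counts scaled by the submitters to nearly the same total, 20007331 to 20014236 units per library. In the 4 libraries they stood for 7018427 to 8722940 reads in genes, and genes of the mitochondrial genome took up 2.00 to 2.67%. A gene was called at an adjusted p below 0.05 in limma on log2(value + 1), so a log2 fold change understates the change of low genes. A fold without "log2" is a ratio of group means in deposited units. The replicate number is a batch tag in the labels. The 2 fractions with the same number deviated together: the correlation across genes of replicate 1 minus replicate 2 was 0.72 between the control fractions. It was 0.637 to 0.820 in the 5 lines, against a median of 0.321 over 48 pairs of groups of different lines. A fit with same-numbered fractions of each line paired, called the paired fit here and added after the data were seen, is therefore given beside the unpaired one where it changes a call.

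Most genes called without pairing were lower in EPCAM- cells, but this excess was not seen in the fits that paired the control fractions. In the unpaired fit 126 of 19569 tested genes were called, 0.644% of them. In EPCAM- cells 110 genes fell (0.562%) and 16 rose (0.0818%), with a median log2 fold change of -2.58 over the falls and 2.33 over the rises, against 0.03 over all tested genes. Of all tested genes 10400 had a positive log2 fold change and 9075 a negative one, which is the background for the signs given per list below. A common block for the replicate number gave 224 calls (1.14%), 58 rises (0.296%) and 166 falls (0.848%). The paired fit called 880 genes (4.5%), 445 higher (2.27%) and 435 lower (2.22%), so the excess of falls was not seen in that fit. Nor was it seen with only these 4 libraries and the replicate block, where 492 genes were higher and 433 lower. Of the 126 genes, 125 were also called in the paired fit, the exception being St14 (adjusted p 0.0509 in limma). Calls numbered 32 without EPCAM+ replicate 1, 57 without EPCAM- replicate 1, 105 without EPCAM- replicate 2 and 177 without EPCAM+ replicate 2. They numbered 14 with only these 4 libraries in the fit, and 28 of the 126, all of them falls, were called whichever of the 4 libraries was left out. With voom, which weights each value by the precision expected at its read count, 97 of the 126 were called. In all 126 called genes both EPCAM- libraries lay outside both EPCAM+ libraries, as they did in 33% of all tested genes.

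**Figure D1:**
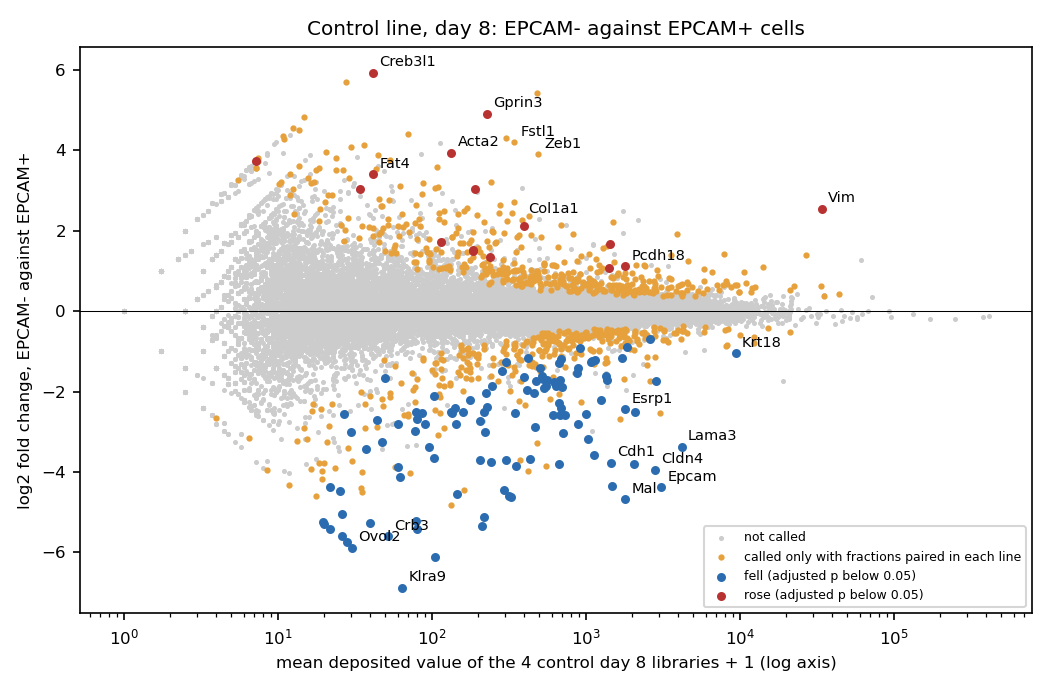
Each point is a tested gene of the control line at day 8, with the mean deposited value of the 4 libraries plus 1 on a log axis (x) and the log2 fold change of EPCAM- against EPCAM+ cells (y). The 110 called falls (blue) reach log2 -6.88 for Klra9 and the 16 called rises (red) reach 5.93 for Creb3l1, while genes called only in the paired fit (orange) lie on both sides of 0.

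Epcam itself, which the sort selected on, was measured at 180 and 441 units in EPCAM- replicates 1 and 2, against 6153 and 5633 in EPCAM+ cells. Both EPCAM- libraries lay far below both EPCAM+ libraries, and 2.93% of the EPCAM+ value was left in number 1 and 7.83% in number 2. The fold change was log2 -4.38 (standard error 0.63, adjusted p 0.00361 in limma). At day 0, EPCAM+ cells held 5816 and 5917 units, close to the day 8 EPCAM+ libraries. The mRNA thus followed the sorted protein in direction and does not count as a finding. Epcam (ENSMUSG00000045394) lies on GRCm38 chromosome 17, 87635979 to 87651129, on the plus strand.

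Cdh1, which encodes E-cadherin, the adhesion molecule of adherens junctions, held 251 and 156 units in EPCAM- cells against 2903 and 2512 in EPCAM+ cells. The fractions were far apart in both numbers, and Cdh1 fell 13.3-fold (log2 -3.76, standard error 0.32, adjusted p 4.45e-05 in limma). It was among the 28 genes called with any of the 4 libraries left out. Vim, which encodes the intermediate filament vimentin, held 67534 and 49071 units in EPCAM- cells, above 9875 and 9745 in EPCAM+ cells. It rose 5.94-fold, or log2 2.55 with a standard error of 0.47 (adjusted p 0.0194 in limma). EPCAM+ cells were not without vimentin: at day 0 they held 10710 and 2332 units. All 3 markers therefore followed the sort labels.

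The promoters of 4 genes that fell are shown because they carry, more than once, the E-box that Zeb and Snail factors bind, CAGGTG or its reverse complement CACCTG. They were picked after the matches were known, from genes for cell adhesion (Epcam), apical polarity (Crb3), apical membrane recycling (Rab25) and tight junctions (Cldn7). Each sequence is the 250 bases before a RefSeq start of the gene on GRCm38.p6, written 5′ to 3′ on the gene's own strand, with the E-boxes in capitals. A gene can have several such starts, and for Cldn7 it was not the top-listed start. GENCODE M21 places the starts of Crb3 and Cldn7 upstream of these windows, at 57059105 and 69964779.
Epcam, chr17:87635729-87635978, plus strand: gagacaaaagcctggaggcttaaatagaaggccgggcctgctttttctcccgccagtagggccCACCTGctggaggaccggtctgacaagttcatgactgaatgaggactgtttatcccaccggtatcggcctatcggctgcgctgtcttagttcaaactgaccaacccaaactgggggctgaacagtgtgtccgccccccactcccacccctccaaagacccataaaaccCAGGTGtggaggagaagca
Crb3, chr17:57061951-57062200, plus strand: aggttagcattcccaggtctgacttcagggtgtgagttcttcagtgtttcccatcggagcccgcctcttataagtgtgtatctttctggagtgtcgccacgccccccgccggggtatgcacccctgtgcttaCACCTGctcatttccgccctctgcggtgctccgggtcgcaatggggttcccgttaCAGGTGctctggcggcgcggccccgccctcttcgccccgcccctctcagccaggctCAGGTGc
Rab25, chr3:88548280-88548529, minus strand: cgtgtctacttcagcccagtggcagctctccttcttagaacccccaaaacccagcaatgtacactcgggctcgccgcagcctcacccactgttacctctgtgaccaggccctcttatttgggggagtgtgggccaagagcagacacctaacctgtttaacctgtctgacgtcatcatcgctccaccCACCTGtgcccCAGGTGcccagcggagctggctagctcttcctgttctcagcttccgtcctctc
Cldn7, chr11:69965171-69965420, plus strand: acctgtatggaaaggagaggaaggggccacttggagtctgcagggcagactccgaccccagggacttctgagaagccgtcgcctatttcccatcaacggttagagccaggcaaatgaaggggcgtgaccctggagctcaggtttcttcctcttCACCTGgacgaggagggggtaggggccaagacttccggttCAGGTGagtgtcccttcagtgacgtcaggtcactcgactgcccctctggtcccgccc
In Epcam the E-boxes began 187 and 19 bases before the start, in Crb3 118, 63 and 7, in Rab25 64 and 53, and in Cldn7 97 and 57.

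The same 6 letters were searched on both strands in every RefSeq promoter window, from 250 bases before to 50 after a gene start. They occurred in 45 of 95 windows of the genes that fell (47.4%, windows for 68 of the 110 genes) and in 2 of 17 windows of the genes that rose (11.8%, 13 of the 16 genes). Over all tested genes 2623 of 13940 windows held them (18.8%). The genes lower in the paired fit held them in 152 of 408 windows (37.3%), and those higher in 76 of 450 (16.9%). A gene can have several overlapping windows, so these shares are a description without a test, and a match is not a measured binding site.

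Of 14 tested genes for adherens junctions and EPCAM partners 5 fell, Epcam and Cdh1 among them, none rose and 9 were not called. The median log2 fold change was -0.91, with 12 negative and 2 positive. St14, the membrane protease matriptase, which cleaves EPCAM, held 43 and 409 against 2804 and 2626 units, and its inhibitor Spint1 held 163 and 491 against 1676 and 1657. Both fell (adjusted p 0.0247 and 0.0201 in limma), and both retained more in replicate 2 than in replicate 1. Spint2, a second inhibitor of the same protease, held 682 and 961 against 1882 and 2001 units (adjusted p 0.0910, 0.0124 in the paired fit).

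Tight junction genes, which seal neighbouring cells at their apical border, fell in 7 of 18 tested, and none rose (median log2 -1.41). Ocln, the gene for occludin, held 40 and 44 units against 870 and 442 and fell 15.6-fold (adjusted p 0.00100 in limma). Its relative Marveld2, or tricellulin, which closes the corners where 3 cells meet, held 92 and 129 against 956 and 683 and fell 7.42-fold. Both were uniform between the EPCAM- libraries. Claudins, the sealing strands, were less even. Cldn7 held 134 and 292 units against 2334 and 1376 and fell 8.71-fold. Cldn4 held 95 and 1069 against 4104 and 5909, so 2.32% of the EPCAM+ value was left in number 1 and 18.1% in number 2. Its adjusted p was 0.0397 in limma and 0.0903 with the common replicate block. Cldn6 (83 and 133 against 392 and 374) and Cldn23 (6 and 39 against 118 and 144) also fell. Other claudins were not called. Cldn1 (63 and 44 against 76 and 33), Cldn3 (69 and 292 against 58 and 331) and Cldn12 had log2 fold changes of 0.07, 0.03 and -0.26. Cldn9 was near 0 in both fractions (0 and 0 against 8 and 0). Cgn, or cingulin, which links the junction to actin, fell 2.36-fold (676 and 638 against 1757 and 1346).

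The apical polarity and membrane trafficking genes had the highest share of calls among the junction lists: 13 of 21 tested fell, none rose, and the median log2 fold change was -2.49. Marveld2 is in this list and in the tight junction list, and the lists were chosen with earlier results of these data known. Crb3 encodes the Crumbs protein that marks the apical membrane. It held 0 and 3 units in EPCAM- cells, 1 read or fewer in each, against 134 and 68 in EPCAM+ cells (log2 -5.59, adjusted p 0.00107 in limma). Pard6b, of the Par polarity complex, fell 3.20-fold (502 and 803 against 2055 and 2123). Patj, which binds the Crumbs complex, fell 2.32-fold (602 and 780 against 1723 and 1487). Among these called genes the fall was steep for the membrane protein and moderate for the cytoplasmic partners, a difference that was not tested. Pard3 (2383 and 2463 against 2175 and 2331) and Prkci (2263 and 2883 against 2120 and 2986), also in this list, were not called. Their log2 fold changes were 0.11 and 0.02.

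The other 8 tested members of the list were not called, and 3 of the 21 log2 fold changes were positive. Among the members that fell were several with roles in transport to the apical surface. Rab25, an epithelial GTPase of recycling endosomes, held 20 and 5 units against 598 and 250 and fell 33.9-fold (adjusted p 0.0348 in limma). Its motor partner Myo5b held 26 and 67 against 596 and 518 and fell 12.0-fold (adjusted p 0.000130 in limma). Mal and Mal2 encode proteolipids of apical transport. Mal held 374 and 37 units against 4947 and 1860, and Mal2 held 23 and 19 against 956 and 306. Mal2 was equally low in both EPCAM- libraries, while Mal differed between them, with the higher value in number 1. Ap1m2, the epithelial subunit of a sorting adaptor (12 and 3 against 149 and 74), fell 14.9-fold (adjusted p 0.0134, 0.106 with voom). Prom2, a protein of membrane protrusions, held 9 and 5 units against 692 and 139 and fell 59.4-fold (adjusted p 0.00632, 0.126 with voom), although its EPCAM+ libraries also differed from each other. Map7, a microtubule-binding protein, fell 22.1-fold (6 and 19 against 314 and 239). Epn3 (5.81-fold) and Cnksr1 (6.42-fold) fell as well.

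Desmosomes anchor keratin filaments at cell borders. Of 9 tested desmosome genes 3 fell and all 9 had negative log2 fold changes (median -1.42). Dsp, or desmoplakin, held 682 and 496 units against 4821 and 2293 (6.04-fold, adjusted p 0.0254 in limma). Pkp3, a plakophilin, held 140 and 161 against 1564 and 983 and fell 8.46-fold, and Evpl, or envoplakin, fell 2.74-fold (308 and 227 against 932 and 536). Ppl, or periplakin, was not called: its EPCAM+ libraries held 5043 and 758 units and its EPCAM- libraries 1354 and 184. The fractions overlapped although Ppl was lower in EPCAM- cells within both numbers, leaving 26.9% and 24.3% of the EPCAM+ value (adjusted p 0.762 in limma, 0.120 in the paired fit).

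Adhesion to the basement membrane gave a divided list, with 4 of 13 tested genes lower in the unpaired fit and none higher (median log2 -0.58). Lama3, a chain of laminin-332, held 727 and 704 units against 5531 and 9856 and fell 10.8-fold (adjusted p 0.00214 in limma). Its day 0 values in EPCAM+ cells were 4129 and 2942. Itgb6, an integrin chain of epithelia, held 60 and 60 against 1008 and 604 and fell 13.4-fold (adjusted p 9.27e-05 in limma). Itgb4, the hemidesmosome integrin, held 1471 and 1365 against 3448 and 3755 (adjusted p 0.398, 2.11e-05 in the paired fit). The cell adhesion genes Mpzl2 (191 and 225 against 1204 and 1294) and Mpzl3 (174 and 292 against 1199 and 1024) also fell. Dst and Plec, the plakins that tie integrins to filaments, were higher in EPCAM- cells: 13784 and 24215 against 5430 and 13380 units for Dst, and 45951 and 35385 against 26355 and 26286 for Plec. They were called only in the paired fit (adjusted p 0.0161 and 0.0180, unpaired 0.450 and 0.611).

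Regulators of the epithelial state fell in 7 of 20 tested genes, with none higher (median log2 -1.34). Ovol2, a zinc finger repressor of Zeb1, was at 0 in both EPCAM- libraries and at 71 and 47 in EPCAM+ cells, at least 7.65-fold lower (3 reads per library in place of 0, adjusted p 0.00100 in limma). Its relative Ovol1 held 18 and 14 against 188 and 160 units and fell 10.9-fold. Grhl2, a Grainyhead-like activator of junction genes, held 206 and 232 against 1739 and 1365 and fell 7.09-fold (adjusted p 0.00956 in limma). The RNA-binding regulators fell together: Esrp1 held 308 and 961 units against 3031 and 2889, Esrp2 231 and 271 against 948 and 628, and Rbm47 271 and 276 against 953 and 1048. The fractions overlapped in none of these 6 genes, as in all 126 called genes and in 33% of all tested genes. EPCAM- cells still held 231 units or more of each RNA-binding regulator. Grhl3, at 3 and 3 against 63 and 19 units, was not called (adjusted p 0.500).

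The targets of the knockouts, read here in unedited cells, were not called in 3 of 4 cases. Klf5 held 2941 and 1803 units in EPCAM- cells against 2585 and 1733, a log2 fold change of 0.12 with a standard error of 0.27 (adjusted p 0.999 in limma). Pitx1 held 6438 and 5668 against 5432 and 4358 (log2 0.31, adjusted p 0.882). Nfatc1 held 981 and 542 against 817 and 488 (log2 0.21, adjusted p 0.999). The signs of Klf5 and Nfatc1 changed with single libraries left out. Creb3l1, which encodes a membrane-bound transcription factor released by proteolysis, was the exception, at 137 and 26 units against 0 and 0. It was at least 10.2-fold higher in EPCAM- cells, with 3 reads per library in place of 0 (log2 5.93, standard error 1.18, adjusted p 0.0228 in limma, 0.0601 with voom). Day 0 EPCAM+ cells held 12 and 7 units.

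Keratins of simple epithelia were reduced but abundant. Krt18 held 6760 and 5389 units against 15536 and 10048 and fell 2.11-fold (log2 -1.05, adjusted p 0.0215 in limma). Its partner Krt8 was 1.74-fold lower (10510 and 7622 against 19245 and 12292, adjusted p 0.107, 0.00201 in the paired fit). Krt7 and Krt19 were lower too, and all 4 tested simple keratins were called in the paired fit, where 2.22% of all tested genes were lower. Among 11 stratified keratins none was called in the unpaired fit and 3 were lower in the paired fit: Krt5 (43 and 0 against 178 and 63), Krt6a (112 and 7 against 1415 and 157) and Krt80 (804 and 725 against 2373 and 1465). Krt5 and Krt6a were higher in number 1 than in number 2 in both fractions. Squamous differentiation genes fell in 2 of 15 tested. Serpinb5, or maspin, held 18 and 26 units against 888 and 336 and fell 27.8-fold (adjusted p 5.49e-05 in limma), and Lypd3, a surface protein of squamous cells, fell 5.80-fold (117 and 88 against 669 and 520). S100a14, Fgfbp1 and Sfn were among 4 further members lower in the paired fit only, and S100a14 was at 18 and 0 against 481 and 30 units.

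**Figure D2:**
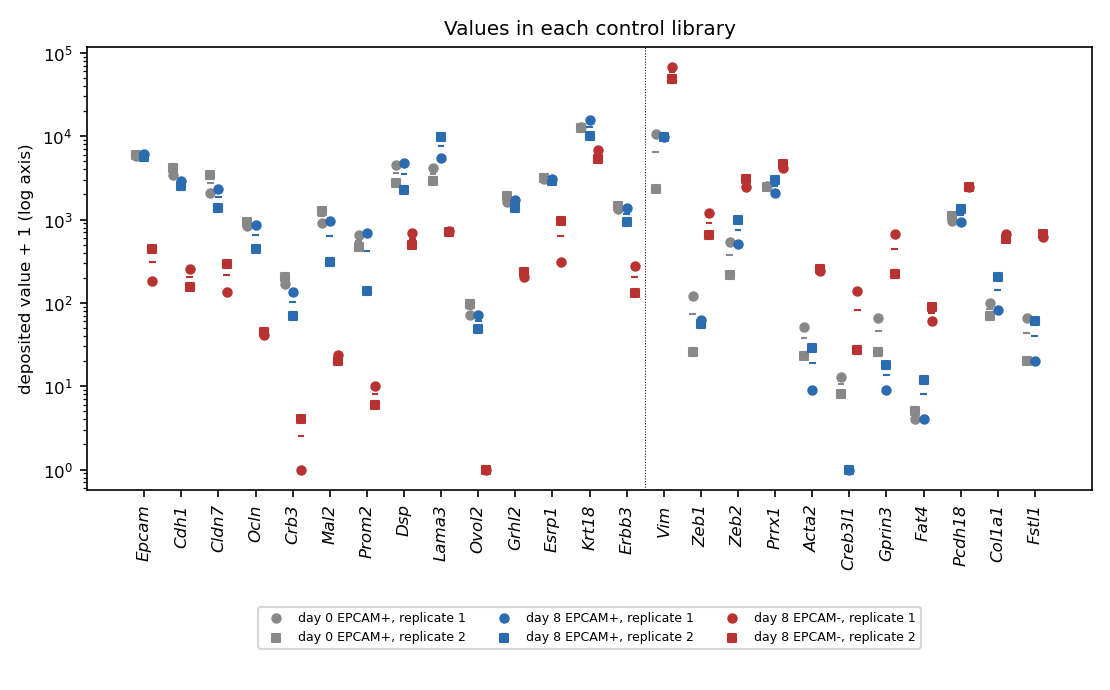
Deposited value plus 1 (log axis) of 25 genes in each control library: day 0 EPCAM+ (grey), day 8 EPCAM+ (blue) and day 8 EPCAM- (red), with circles for replicate 1, squares for replicate 2 and a short line at the mean. The 14 epithelial genes left of the dotted line lie lower in both EPCAM- libraries than in both EPCAM+ libraries of day 8, and the genes right of it lie higher, Vim at 67534 and 49071 against 9875 and 9745.

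EMT transcription factors were mostly higher in EPCAM- cells, with few calls. Of 19 tested EMT transcription factors 18 had positive log2 fold changes (median 0.82), beside 10400 of 19569 over all tested genes. Creb3l1 alone was called in the unpaired fit. Zeb1, the repressor of Cdh1 and Epcam, held 1183 and 654 units in EPCAM- cells against 61 and 55 in EPCAM+ cells. The fractions were 15.8-fold apart without overlap, but the standard error of 0.90 on a log2 fold change of 3.90 left the adjusted p at 0.0875 in limma. With the common replicate block it was 0.000156, and in the paired fit 6.54e-05. Zeb2 held 2463 and 3061 against 515 and 975 units (adjusted p 0.153, 0.0994 in the paired fit) and was not called in either.

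Other EMT factors were called in the paired fit but not in the unpaired limma fit. Prrx1, a homeobox factor, held 4150 and 4650 units against 2109 and 2943 (adjusted p 0.0503, 0.00134 in the paired fit). Prrx1 was also called with the common replicate block (adjusted p 0.0203) and with voom (0.0491). Snai1 held 1217 and 798 against 402 and 447 (0.594, 0.00762 in the paired fit). Foxf2, a forkhead factor, held 305 and 287 against 79 and 122 (0.428, 0.00588). Snai2 was at 314 and 257 against 105 and 82 units without a call (0.707, 0.121). Snai3 went the other way, at 3 and 0 against 29 and 30 units (0.116, 0.0202), and was the single member lower in the paired fit.

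Cytoskeletal genes of mesenchymal and contractile cells rose in 2 of 21 tested, Vim and Acta2, and 7 were higher in the paired fit (median log2 0.44). In that fit 2.27% of all tested genes were higher. Acta2, smooth muscle actin, held 243 and 253 units against 8 and 28 and rose 13.8-fold (log2 3.95, standard error 0.82, adjusted p 0.0376 in limma). With voom its adjusted p was 0.163. Fhl1 (43 and 269 against 8 and 22), Cald1 (24892 and 29190 against 13719 and 22196) and Flna (46364 and 54892 against 32784 and 42170) were called in the paired fit. Within each number the gap was wide for Fhl1 and narrow for Cald1 and Flna.

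Cadherins and protocadherins of mesenchymal or neural type rose in 2 of 10 tested. Pcdh18 held 2434 and 2465 units against 938 and 1348 (2.14-fold, log2 1.12, standard error 0.19, adjusted p 0.00778 in limma). Fat4, a giant cadherin of planar polarity and Hippo signalling, held 60 and 88 against 3 and 11 (10.6-fold, adjusted p 0.0348, 0.108 with voom). Cdh2, N-cadherin, held 2406 and 4160 against 1000 and 2109 units. It was higher in EPCAM- cells within each number, but the fractions came close because number 2 was higher in both, and it was called only in the paired fit (adjusted p 0.609, 0.000105 in the paired fit). Cdh11 held 357 and 340 against 47 and 41, a 7.92-fold difference that was not called unpaired or paired (0.604, 0.0919) and was called with voom (0.0241).

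Matrix genes gave 1 call in the unpaired fit. Olfml3, a secreted olfactomedin-domain protein, held 80 and 39 units against 3 and 11 and rose 8.50-fold (adjusted p 0.0332 in limma, 0.127 with voom). Of 18 tested collagens 14 had positive log2 fold changes (median 0.90), none was called in the unpaired fit and 6 were higher in the paired fit. Over all tested genes 2.27% were higher in the paired fit. Col1a1 held 667 and 585 against 81 and 201 (0.722, 0.00410 in the paired fit), Col5a1 2426 and 2362 against 293 and 888 (0.129, 0.0141), and Col12a1 266 and 324 against 74 and 74 (0.517, 2.70e-05). Col3a1 differed more between the numbers than between the fractions, at 1001 and 58 against 152 and 0. Of 25 other matrix genes 7 were higher in the paired fit, among them Fstl1, a secreted follistatin-like glycoprotein, at 613 and 677 against 19 and 60 units (0.405, 0.00808). Sparc (5047 and 4017 against 2652 and 2537), Vcan (17509 and 10907 against 8196 and 6042) and the collagen crosslinking enzyme Lox (622 and 1635 against 152 and 344) were also among them.

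The other genes that rose belong to no list above. Gprin3, a G protein-regulated inducer of neurite outgrowth, held 664 and 221 units against 8 and 17 and rose 35.4-fold (log2 4.92, standard error 0.81, adjusted p 0.00590 in limma). Ttc28 (380 and 292 against 24 and 65) rose 7.55-fold and Lix1l (702 and 581 against 108 and 201) 4.15-fold. Rgl1, a Ral GTPase exchange factor (3.19-fold), the GTPase Rab30 (2.86-fold) and Gsap (2.73-fold) also rose. Arhgef16 (9 and 3 against 74 and 60) and Arap2 (471 and 409 against 2284 and 1830), regulators of small GTPases, fell. Gchfr, the feedback regulator of tetrahydrobiopterin synthesis (2.53-fold), and Ece1, the endothelin-converting enzyme (2.17-fold), rose. Cd5, at 15 and 10 against 0 and 0 units, was called at a level of a few reads.

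Surface and signalling lists were mixed. L1cam, a neural adhesion molecule, fell 3.81-fold (217 and 367 against 1480 and 742, adjusted p 0.0499 in limma). Of 17 tested integrins and surface markers of EMT states 5 were higher and 2 lower in the paired fit, beside 2.27% and 2.22% over all tested genes. Ncam1 was among the higher (7922 and 7918 against 3383 and 4312) and Cd44 among the lower (15448 and 19570 against 22706 and 26782). Erbb3, the neuregulin receptor, held 274 and 129 units against 1376 and 929 and fell 5.72-fold (adjusted p 0.00100 in limma). Tgfa, a ligand of the related EGF receptor, fell 2.23-fold (1234 and 886 against 2543 and 2188). Wnt7a, an epithelial Wnt ligand, fell 3.66-fold (223 and 253 against 838 and 902), and Wnt7b was lower in the paired fit only (1029 and 1365 against 4683 and 3365, adjusted p 0.204, 0.000143). The receptor Fzd2 moved the opposite way in that fit (1881 and 1569 against 726 and 929, adjusted p 0.136, 0.000490).

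Of 25 tested TGF-beta pathway genes none was called in the unpaired fit, and 5 were higher and 1 lower in the paired fit. Over all tested genes the paired fit called 2.27% higher and 2.22% lower. Ltbp1 and Ltbp2 encode matrix proteins of the family that binds latent TGF-beta. Ltbp2 held 5432 and 4967 against 1718 and 2253 units (adjusted p 0.316, 1.25e-05 in the paired fit) and Ltbp1 8475 and 6097 against 4957 and 3730 (0.415, 0.000208). Of 11 Notch genes 3 were lower in the paired fit, Notch1 (670 and 1037 against 1799 and 1920), Dll1 and Nrarp, and none was called unpaired. Fgf2, a fibroblast growth factor, held 311 and 427 against 42 and 195 units (0.223, 0.00319). Each of these genes moved the same way in both numbers.

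**Figure D3:**
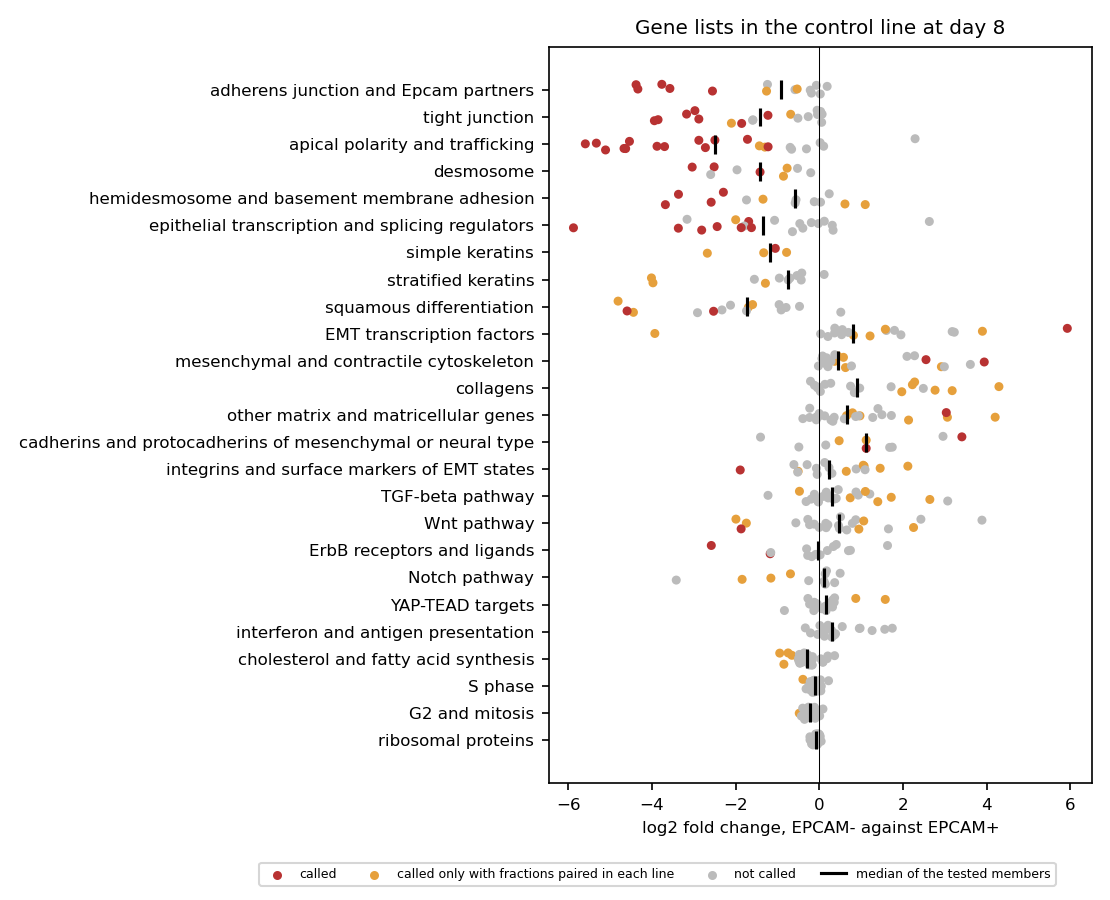
Log2 fold change of EPCAM- against EPCAM+ cells (x) for the tested members of 25 gene lists (y), coloured by call, with a black line at the list median. Medians run from -2.49 for apical polarity and trafficking to 1.12 for cadherins and protocadherins of mesenchymal or neural type, and lists of cell division and ribosomal proteins lie near 0.

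Housekeeping and growth programmes showed small median differences. Few of their genes were called, but over all tested genes the share called was only 0.644% unpaired and 4.5% in the paired fit. No gene of 19 in interferon and antigen presentation, 19 in hypoxia and glycolysis or 25 ribosomal proteins was called in either fit, with list medians of 0.29, 0.07 and -0.07. Log2 fold changes were positive in 16, 10 and 3 of these genes and negative in 3, 9 and 22. Each cell cycle list of 20 genes had none called unpaired and 1 lower in the paired fit: Rrm2 for S phase (4765 and 5528 against 6912 and 6546) and Ube2c for mitosis (3639 and 3536 against 5205 and 4794). The medians of these 2 lists were -0.10 and -0.22, with 16 and 18 of the 20 log2 fold changes negative. Cholesterol and fatty acid synthesis had 5 of 27 genes lower in the paired fit and none called unpaired (median -0.30). The Hox genes, which lie outside these programmes, had a larger median of 0.60, and all 22 tested had positive log2 fold changes. Hoxa10 alone was called, in the paired fit (266 and 186 against 42 and 109). Chance was not assessed for these counts, and members of a list are not independent.

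Several of the largest falls lay outside these programmes. Of 9 tested Ly49 receptor genes of the Klra cluster, known from natural killer cells, 3 fell and 6 were not called, 7 log2 fold changes being negative and 2 positive. Klra9 held 0 and 0 units against 178 and 76 (at least 16.5-fold lower with 3 reads per library in place of 0, adjusted p 0.000411 in limma), Klra8 6 and 0 against 303 and 109 (adjusted p 0.0393, 0.219 with voom), and Klra3 0 and 0 against 71 and 38. These paralogs are nearly identical in places, and their reads may have been assigned to the wrong copy. Gpx2, an epithelial glutathione peroxidase, held 12 and 0 against 160 and 144 units (25.3-fold), with an adjusted p of 0.0499 in limma and 0.0546 with the common replicate block. Slc4a11, an ion transporter (149 and 484 against 3339 and 4245), and Galnt3, which starts O-linked glycans (40 and 184 against 1037 and 1400), fell 12.0-fold and 10.9-fold. Atp8b1, a lipid flippase of apical membranes (0 and 0 against 68 and 33), and Atp2c2, a calcium pump (6 and 5 against 152 and 82), also fell. Trp53i11 (0 and 12 against 81 and 217), Tmem54 (23 and 26 against 640 and 482), Hpca (0 and 3 against 81 and 71) and Cwh43 (0 and 0 against 89 and 11) complete the 25 largest falls of at least 50 units.

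Of the 126 called genes 118 were protein-coding and 6 were annotated as antisense transcripts, all of which were lower. They overlap genes on the opposite strand, among them Gm29200 in Lama3, Gm26550 in Lypd3, Gm16136 in Grhl2 and Gm45542 in Tlr3. Counting by strand is not stated, so reads of such a pair cannot be told apart. For example, Gm16136 (chromosome 15, 37231793 to 37233309, minus strand) had a log2 fold change of -2.52 beside -2.81 for Grhl2.

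The size of the falls differed between the replicate numbers. All 110 falls were negative and all 16 rises positive within both numbers, which the call makes likely. The median fall was log2 -2.90 in number 1 and -2.40 in number 2, and 82 of the 110 falls were larger in number 1. Rises had medians of 2.73 and 1.63. As a share of the EPCAM+ value, a median of 13.2% of the transcript was left in number 1 and 18.7% in number 2. Epcam itself left 2.93% and 7.83%, and 15 falls left less than Epcam in both numbers. In bulk RNA, fewer cells expressing a gene and less RNA per cell cannot be told apart, so a residual level can be either. St14 had 1.53% left in number 1 and 15.6% in number 2, whereas Mal had 7.56% and 1.99%. The order of the numbers was therefore not the same for all genes.

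**Figure D4:**
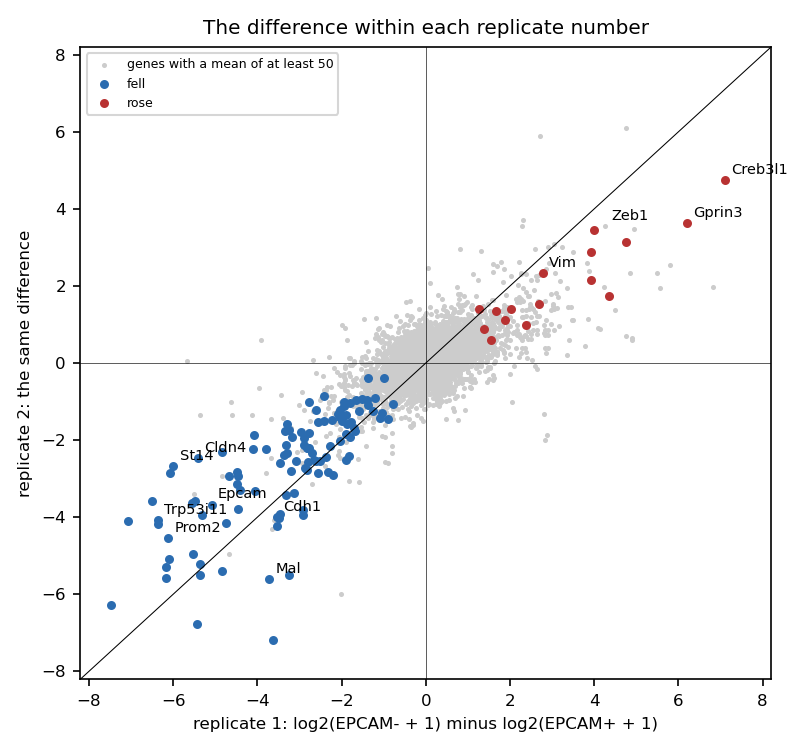
Difference between EPCAM- and EPCAM+ cells on the log2(value + 1) scale in replicate 1 (x) and replicate 2 (y), for genes with a mean of at least 50 (grey), called falls (blue) and called rises (red), with a line of equality. Most called genes lie farther from 0 in replicate 1, such as Epcam at -5.09 against -3.67, while Mal lies at -3.72 against -5.61.

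Markers of other cell types differed by list. Summed over all 8 immune markers, EPCAM- libraries held 193 and 214 units and EPCAM+ libraries 196 and 189, and 0 of the 2 tested genes were called, 1 being positive and 1 negative. Cd3e was at 0 in all 4 libraries. The 6 endothelial markers summed to 204 and 96 against 135 and 101. Their 3 tested genes were all positive (median log2 1.66) and none was called in either fit, while Tek and Cldn5 were at 0 in all 4 libraries. The sum over the 5 melanocyte markers was lower in both numbers, at 260 and 68 against 596 and 123. Of their 2 tested genes 1 was positive, 1 was negative and none was called, and Dct and Tyrp1 were at 0 in all 4 libraries. The sum over the 8 fibroblast markers was higher in both numbers, at 1770 and 827 against 328 and 285. Most of it came from Col1a1 (667 and 585 against 81 and 201) and Col3a1 (1001 and 58 against 152 and 0). Of the 5 tested fibroblast markers 4 were positive (median log2 2.28), and Dcn was negative (35 and 0 against 61 and 0). None was called unpaired and 3 (Col1a1, Col3a1 and Pdgfrb) were higher in the paired fit, as were 2.27% of all tested genes. Dpt, Lum and Thy1 of that list were too low to be tested, at 0 to 6 units. The part of other cell types in the results was not tested.

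The same comparison was made in the 16 day 8 libraries of the 4 knockout lines, which share no library with the control comparison. Both were estimated in 1 fit over all 22 libraries, so each gene has the same estimate of spread in both. The standard error was smaller for the knockout average, 0.32 beside 0.63 in the control line for Epcam. A call in both is therefore not an independent repeat. The difference averaged over those lines called 715 of the 19569 genes (3.65%), 230 higher (1.18%) and 485 lower (2.48%). Pairing within lines gave 2710 calls (13.8%), 1436 higher (7.34%) and 1274 lower (6.51%). All 110 genes that fell in the control line were also called lower there, with a median log2 fold change of -2.24 beside -2.58 in the control line. Of the 16 rises 13 were also called higher, with a median over all 16 of 1.05 beside 2.33. The 3 others were Creb3l1 (log2 0.97, adjusted p 0.467 in limma), Cd5 (0.27, 0.804) and Olfml3 (1.05, 0.0838). The knockout average of Creb3l1 includes the line in which it is the target. Epcam fell by 4.00 on the log2 scale in the knockout lines, and Erbb3 by 3.49 beside 2.58 in the control line. Since the genes were chosen in the control line, a smaller average elsewhere is not by itself a difference between lines.

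The test of that difference, control minus knockout average, called 0 genes in limma (312 at an unadjusted p below 0.05, median standard error 0.44), and 0 with voom, with the common block and in the paired fit. For Creb3l1 it was log2 4.97 with a standard error of 1.31 and an unadjusted p of 0.00155 in limma, which did not survive adjustment (adjusted p 1). For Epcam it was -0.38 with a standard error of 0.71, and for Vim 0.33 with 0.52. Without EPCAM- replicate 2 of the control line 2 genes were called, Esrp1 (adjusted p 0.0462 in limma) and the potassium channel gene Kcnk1 (0.0416), named after its values were seen. The control EPCAM- libraries held 308 and 961 units of Esrp1 and 69 and 732 of Kcnk1.

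**Figure D5:**
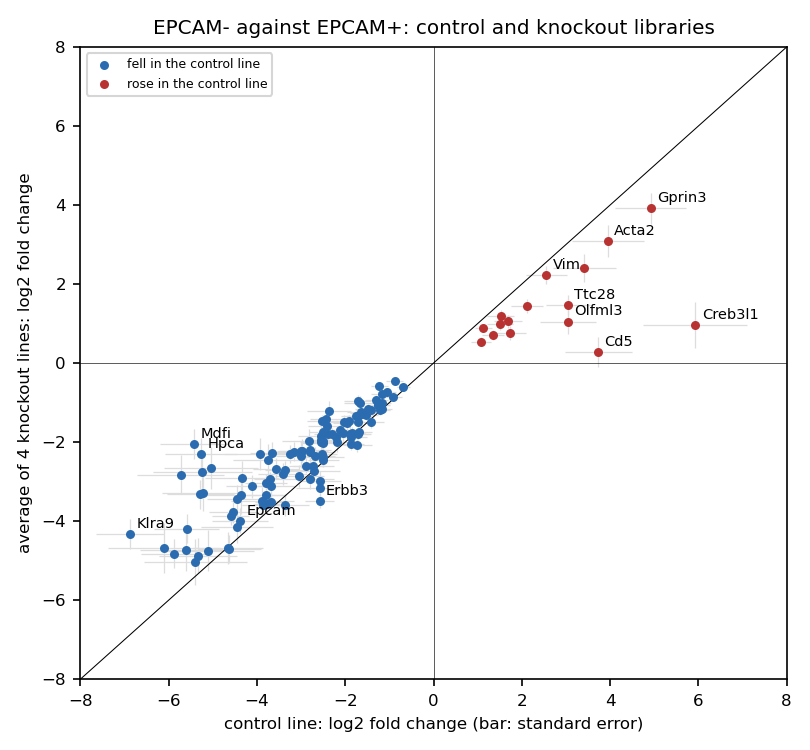
Log2 fold change of EPCAM- against EPCAM+ cells for the 126 called genes in the control line (x) and averaged over 4 knockout lines (y), with bars of 1 standard error and a line of equality. All falls are negative and all rises positive in both, and Creb3l1 lies at 5.93 in the control line and 0.97 in the knockout average.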

How the data were processed

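The deposited table holds 1 score per gene and library. Per the submitters' processing notes FastQC, Trimmomatic, STAR, Picard and HTSeq were used with GRCm38/mm10, without versions. The scores lay on whole steps of 2.02 to 3.30 units, rounded up, in 99.8 to 99.9% of values above 0, and 1 step was read as 1 read. This gave 6054919 to 9882692 reads per library. Of 49671 identifiers 49326 matched GENCODE M21.

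The design assumed either counts or scaled values. Since the deposited scores are not counts, limma 3.58.1 in R 4.3.3 was fitted to log2(score + 1) over all 22 libraries with 1 mean per group (trend, robust, 11 residual degrees of freedom). Genes with at least 10 units in 2 libraries were tested, with Benjamini-Hochberg adjustment over all 19569. The common block left 10 residual degrees of freedom and the paired fit 6. The script was tested on simulated data. Of 55 pairs of groups 44 had replicate differences correlated over 0.1 (11154 genes).

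Genes were named by a rule: the sort markers and knockout targets, all rises and the 25 largest falls with at least 50 units in the higher group, every called member of 41 gene lists (760 genes, 679 tested) and up to 3 uncalled members per list. Genes named as called only in the paired fit were chosen after their values were seen. Some items are not reported here. The members and lists were chosen with earlier results of these data known. Figures used Python 3.11.15 and matplotlib 3.10.9.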

Additional observations from a re-analysis of the deposited data

Results flagged for a closer look

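Pitx1 was higher in EPCAM- than in EPCAM+ cells in both numbers of the control line (log2 differences of 0.25 and 0.38) and lower in both numbers of the Pitx1 knockout line, with a mean log2 difference of -0.16 over its 2 pairs. The opposite signs are what flagged it, and the difference between the lines was not tested. In the control line itself Pitx1 was not called (adjusted p 0.882 in limma).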

How the results depend on the processing

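For the control comparison, 126 calls became 224 with the common replicate block, 14 when only the 2 groups compared were fitted, 925 with only those groups and the replicate block, and 880 with fractions paired in each line (a replicate block of its own in each line). Leaving out 1 of its 4 libraries gave 32 to 177 calls. The lone library of a group is then assumed to vary like the other groups. A pseudocount of 10, no filter, a filter at 50, median-ratio scaling and voom gave 142, 140, 124, 125 and 100. Median-ratio scaling moved the median of all genes from log2 0.03 to 0.01. For the knockout average, 715 calls became 1254 with the replicate block, 1703 with only the compared groups and that block, and 2710 with the line pairing; leaving out 1 library gave 488 to 731. The control minus knockout difference gave 0 to 2 calls with 1 library left out, the 2 without control EPCAM- replicate 2. Of the named genes, the uncalled log2 fold changes of Klf5 and Nfatc1 changed sign, to -0.23 and -0.22 without EPCAM- replicate 1 to -0.17 and -0.16 without EPCAM+ replicate 2, and were 0.47 and 0.63 without EPCAM- replicate 2. With the block, Gpx2 and Cldn4 were the only called genes lost. Of the 126 called genes 97 were also called with voom. Beside those said so above, Klra3, Atp8b1, Gpx2, Trp53i11, Cwh43, Cldn4, Arhgef16, Ece1, Rgl1 and Cd5 were not called with voom, with adjusted p from 0.0520 (Ece1) to 0.259 (Gpx2). At these depths a value of 2.02 to 3.30 units is a single read, so genes at 0 to 10 units are read as low and not as absent.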

Other observations

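Several further lists had few calls. Over all tested genes 2.27% were higher and 2.22% lower in the paired fit, so counts of 1 or 2 per list are not read as a result about the list. Of 25 tested proteases and inhibitors 1 was higher and 1 lower in the paired fit, and of 25 receptor tyrosine kinase and ligand genes 5 were higher and 1 lower, with none called unpaired in either list. Among the higher were Igf1r, the insulin-like growth factor receptor (8857 and 8399 units in EPCAM- against 4764 and 6372 in EPCAM+ cells, adjusted p 0.503 in limma, 0.00270 in the paired fit), and the collagen receptor Ddr2 (2577 and 1617 against 1577 and 1102, 0.954, 0.00186 in the paired fit). Of 18 YAP-TEAD targets 2 were higher in the paired fit. One was Crim1 (1363 and 2468 against 387 and 972, adjusted p 0.223, 6.67e-06 in the paired fit) and the other the coactivator gene Wwtr1 (3357 and 4219 against 1710 and 2466, 0.0739, 0.000208).

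Of 19 AP-1 and immediate early genes 1, and of 21 chemokines and cytokines 2, were higher in the paired fit, 1 of the latter list being lower. Csf1, the macrophage growth factor, was among the higher (7603 and 9724 against 3524 and 5476, adjusted p 0.207, 0.000238 in the paired fit). The axon guidance list of 25 had 3 higher and 1 lower in that fit. The lists for glutathione and NRF2 and for p53 targets each had 1 call in the unpaired fit, Gpx2 and Trp53i11, and the secretory pathway list of 22 had 1, Creb3l1.

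A pair of further genes, chosen after their values were seen, were called only in the paired fit. Il24 held 89 and 56 units against 1099 and 956 (adjusted p 0.102, 0.000972 in the paired fit). Il18r1, a chain of the interleukin-18 receptor, held 134 and 51 against 1227 and 528 (adjusted p 0.0690, 9.35e-07 in the paired fit).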
